A study of Homo sapiens with 9 samples.

Results

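The genes described here drive a cell from G1 into S phase: the cyclins CCND1, CCND3, CCNE1 and CCNE2, the cyclin-dependent kinases CDK2, CDK4 and CDK6, the transcription factors E2F1 and E2F2, and the retinoblastoma gene RB1. These 10 genes were taken by name from a table of 63657 Ensembl genes, and each had a row. They were compared between shLOXL2 and shControl cells of the MDA-MB-231 cell line, which derives from a triple-negative breast tumour and is in wide use. The shLOXL2 cells were infected with a short hairpin RNA against LOXL2, the enzyme credited with oxidising lysine 4 of histone H3, and the shControl cells were the control condition. RNA-seq was done on total RNA in 2 libraries of each, among 9 samples of a series that also holds ChIP-seq and ATAC-seq, whose peaks were not placed at these genes here. The sources used here give neither the hairpin sequence nor the time after infection, nor whether the cells were a pool or a clone. The labels do not tell whether the replicates are separate cultures, and the p-values then measure only how far these libraries spread, which may be technical.

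In G1, D-type cyclins bind CDK4 and CDK6 and start the phosphorylation of RB, which otherwise holds E2F factors inactive on their target promoters. Released E2F raises the genes of DNA replication together with those of the E-type cyclins and of E2F1 itself, and cyclin E with CDK2 then completes the phosphorylation of RB. Small inhibitor proteins oppose these kinases: those of the INK4 family act on CDK4 and CDK6, and p21, p27 and p57 act more broadly, on CDK2 complexes above all.

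E2F factors bind a short GC-rich word, so the upstream sequence of 4 genes with lower values in shLOXL2 cells is shown, taken from RefSeq on GRCh38.p14. Each run covers the 250 bases before the outermost start of the gene, 5′ to 3′ on the gene's strand. Capitals mark a match to TTTCCCGC, TTTCGCGC, TTTGCCGC or TTTGGCGC on either strand.
E2F1 (chr20:33686386-33686635, minus strand): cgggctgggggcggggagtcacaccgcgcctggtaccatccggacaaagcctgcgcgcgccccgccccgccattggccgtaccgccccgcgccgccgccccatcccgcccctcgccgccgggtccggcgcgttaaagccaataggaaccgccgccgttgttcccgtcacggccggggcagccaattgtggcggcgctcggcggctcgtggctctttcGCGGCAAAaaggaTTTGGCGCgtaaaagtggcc
E2F2 (chr1:23531234-23531483, minus strand): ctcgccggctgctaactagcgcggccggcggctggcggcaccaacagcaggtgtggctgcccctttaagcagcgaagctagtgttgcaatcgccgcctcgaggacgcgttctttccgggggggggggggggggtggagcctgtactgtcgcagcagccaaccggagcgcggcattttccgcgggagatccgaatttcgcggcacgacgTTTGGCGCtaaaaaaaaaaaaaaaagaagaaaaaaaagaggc
CCNE1 (chr19:29811741-29811990, plus strand): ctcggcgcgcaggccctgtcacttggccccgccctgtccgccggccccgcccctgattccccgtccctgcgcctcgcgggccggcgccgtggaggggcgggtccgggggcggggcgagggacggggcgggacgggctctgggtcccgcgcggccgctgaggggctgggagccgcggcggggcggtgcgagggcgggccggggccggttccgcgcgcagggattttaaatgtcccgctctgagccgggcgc
CDK6 (chr7:92836574-92836823, minus strand): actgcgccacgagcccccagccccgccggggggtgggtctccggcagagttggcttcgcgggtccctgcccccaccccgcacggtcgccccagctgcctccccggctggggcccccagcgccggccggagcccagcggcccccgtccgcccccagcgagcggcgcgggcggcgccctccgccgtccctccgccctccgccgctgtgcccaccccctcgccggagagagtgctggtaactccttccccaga
The E2F1 window held 2 such words, which begin 33 and 20 bases before the start, and that of E2F2 held 1, which begins 42 bases before it. No word of this spelling lay in the windows shown of CCNE1 and CDK6. Among all 35116 windows of the table, 2.79% held a word. The table had windows for 7 of the 10 genes, with no entry for CCND1, CCNE2 or CDK2. The further windows of CCND3, CDK4, CDK6 and RB1 held none, and those of RB1 and CCND3 do not lie at the outermost start of the gene.

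Levels are in FPKM, a unit that corrects fragment numbers for transcript length and library size, which allows levels of different genes to be compared. Read numbers cannot be had from FPKM, the libraries' depth is unknown and no counting interval can be given. FPKM sums were 1330440 and 1369370 in the shLOXL2 libraries and 1244380 and 1221570 in the shControl libraries, with 22.8% and 22.1% against 20.4% and 18.5% from mitochondrial genes. When each library was scaled to the same sum over nuclear genes, the median log2 change of all genes moved to -0.071, and none of the 10 genes changed direction, although CCND3 came to 0.0099 and CDK4 to 0.030. LOXL2, the target of the hairpin, stood at 15.2 and 12.1 FPKM in shLOXL2 libraries and at 85.5 and 84.5 FPKM in shControl libraries, 16.1% of the control level (log2 -2.56, limma adjusted p = 0.0124). Of 5 mesenchymal markers of this line, VIM, which lay between 2011 and 2104 FPKM, AXL and ZEB1 did not pass, CD44 fell (log2 -0.39, limma adjusted p = 0.0172) and FN1 rose (log2 0.45, limma adjusted p = 0.031, and 0.0608 at equal sums). The hormone receptor genes ESR1 and PGR, which define luminal tumours, were at most 0.0822 FPKM. Of the 5 hormone receptor and luminal markers 2 averaged at least 1 FPKM. ERBB2 lay between 26.1 and 29.8 FPKM and GATA3 averaged 1.43 FPKM, and neither passed, while FOXA1 averaged 0.104 FPKM. All 5 epithelial markers averaged at least 1 FPKM, with a summed level of 683 and 700.2 FPKM in shLOXL2 against 449 and 446 FPKM in shControl libraries. The keratin genes KRT19 (log2 1.01), KRT18 (log2 0.36) and KRT8 (log2 0.30, which did not pass at equal sums) rose and made up most of that sum, EPCAM fell to 4.52 and 5.07 FPKM against 6.85 and 6.69 FPKM (log2 -0.42, limma adjusted p = 0.0443), and CDH1 did not pass. The part of these markers in the results was not tested. Of 9 fibroblast markers 2 averaged at least 1 FPKM, and the summed level of the 9 was 12.4 and 10.2 FPKM in shLOXL2 against 6.07 and 7.43 FPKM in shControl libraries. Most of that sum was the collagen gene COL1A1, at 8.02 and 7.43 FPKM in shLOXL2 against 4.12 and 4.73 FPKM in shControl libraries. PDGFRB overlapped between the groups. Of 9 haematopoietic markers 2 averaged at least 1 FPKM, with sums of 2.87 and 3.51 against 3.82 and 3.45 FPKM. CD3E, which defines T cells, was listed at 0 in all 4 libraries.

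CDK6, E2F1 and CCNE1 fell in shLOXL2 cells, while CCND1, CCND3, CDK4 and RB1 differed by little and did not pass the test. The test was limma's moderated test on log2(FPKM + 1), two-sided, with Benjamini-Hochberg adjustment over the 16987 genes that averaged 1 FPKM or more across the 4 libraries, and a threshold of 0.05. All 10 genes were tested: 3 fell, 0 rose and 7 did not pass, where 8.54% of all tested genes fell and 8.35% rose, 16.9% together. At equal sums over nuclear genes the balance over all genes shifted, with 2171 genes or 12.8% fallen and 1016 or 5.98% risen (18.8% together), against 1450 and 1419 without that scaling, and 5 of the 10 genes fell, CDK2 and E2F2 being the further ones. The change was below 0 in 8 of the 10 genes, against 50.7% of all tested genes. All values of shLOXL2 lay below all of shControl for 8 of the 10 genes and above for CCND3 and CDK4, where 32.8% of tested genes had the first order and 31.8% the second, 64.6% together. The median log2 change was -0.34 over the 10 genes and -0.0041 over all tested genes. In such bulk RNA, fewer cells in late G1 and S phase and less of these transcripts per cell cannot be told apart.

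**Figure D1:**
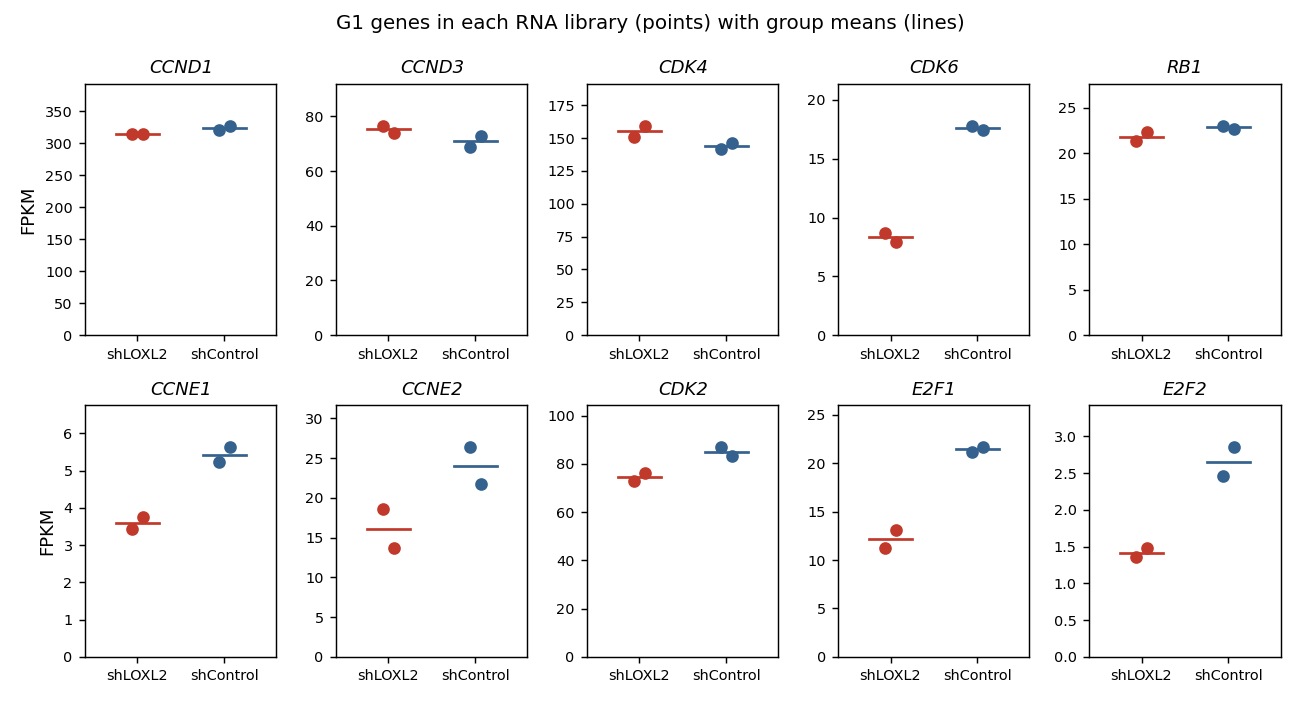
FPKM of each gene in the 2 shLOXL2 libraries (red, left) and the 2 shControl libraries (blue, right), with a line at each group mean and a linear axis from 0. CDK6, E2F1 and CCNE1 lie well below their control values, and so do the means of E2F2 and CCNE2, which did not pass. CCND1, CCND3, CDK4 and RB1 lie close to theirs.

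Among the D-type cyclins, which receive growth factor signals, CCND1 was by far the most abundant of the 10 genes. CCND1 stood at 315 and 315.1 FPKM in shLOXL2 libraries and at 321 and 328 FPKM in shControl libraries. The shLOXL2 values were lower in both libraries, at 97.04% of the control mean. The log2 change was -0.043 (95% interval -0.13 to 0.044, limma adjusted p = 0.384), and it was -0.10 with quantile normalization and -0.12 at equal sums. Without shControl replicate 2 it was -0.029. CCND3, the other D-type cyclin among the 10 genes, stood at 76.6 and 73.9 FPKM in shLOXL2 and at 68.9 and 73.0 FPKM in shControl libraries. Its values were higher without overlap but close to each other, with a log2 change of 0.085 (95% interval -0.053 to 0.22, limma adjusted p = 0.297) that ran from 0.043 to 0.13 with each library left out. CCND2, a D-type cyclin from the wider list, was far lower and fell, to 1.81 and 1.69 FPKM in shLOXL2 against 3.09 and 3.23 FPKM in shControl (log2 -0.60, limma adjusted p = 0.0381, and log2 -0.27 with a pseudocount of 5 FPKM). Summed over the 3 genes, D-type cyclins came to 393 and 391 FPKM in shLOXL2 libraries and 393 and 404 FPKM in shControl libraries. CCND1 made up 80.1% and 80.7% of that sum in shLOXL2 and 81.7% and 81.1% in shControl.

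The kinases that D-type cyclins activate differed in their values. CDK6 (ENSG00000105810) stood at 8.67 and 7.94 FPKM in shLOXL2 libraries and at 17.8 and 17.5 FPKM in shControl libraries. Both shLOXL2 libraries lay far below both controls, at 47.1% of the control mean. The means were 8.31 ± 0.515 and 17.6 ± 0.251 FPKM (SD, n = 2 each), with a log2 change of -1.003 ± 0.058 (SE, limma adjusted p = 0.0131). A log2 change of at most -1 was seen in 3.20% of all tested genes. CDK4 stood at 151 and 159 FPKM in shLOXL2 libraries and at 142 and 146 FPKM in shControl libraries. It was thus slightly higher in both shLOXL2 libraries and did not pass, with a log2 change of 0.11 (95% interval -0.027 to 0.24, limma adjusted p = 0.202) and 0.065 without shLOXL2 replicate 2. CDK6 made up 5.44% and 4.74% of the summed CDK4 and CDK6 level in shLOXL2 libraries and 11.2% and 10.7% in shControl libraries, while that sum was 159 and 167 against 159.6 and 164 FPKM. With 2 libraries against 2, an exact two-sided permutation test of such a share cannot go below p = 0.333. CDK6-AS1, an antisense transcript that overlaps CDK6, stood at 1.73 and 1.73 against 2.35 and 2.31 FPKM and did not pass (limma adjusted p = 0.140). TSPAN31, which overlaps CDK4, stood at 17.8 and 15.5 against 15.3 and 13.1 FPKM and did not pass (log2 0.21, limma adjusted p = 0.278). No source used here tells whether reads were assigned by strand, so reads of the overlapping genes cannot be told apart.

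**Figure D2:**
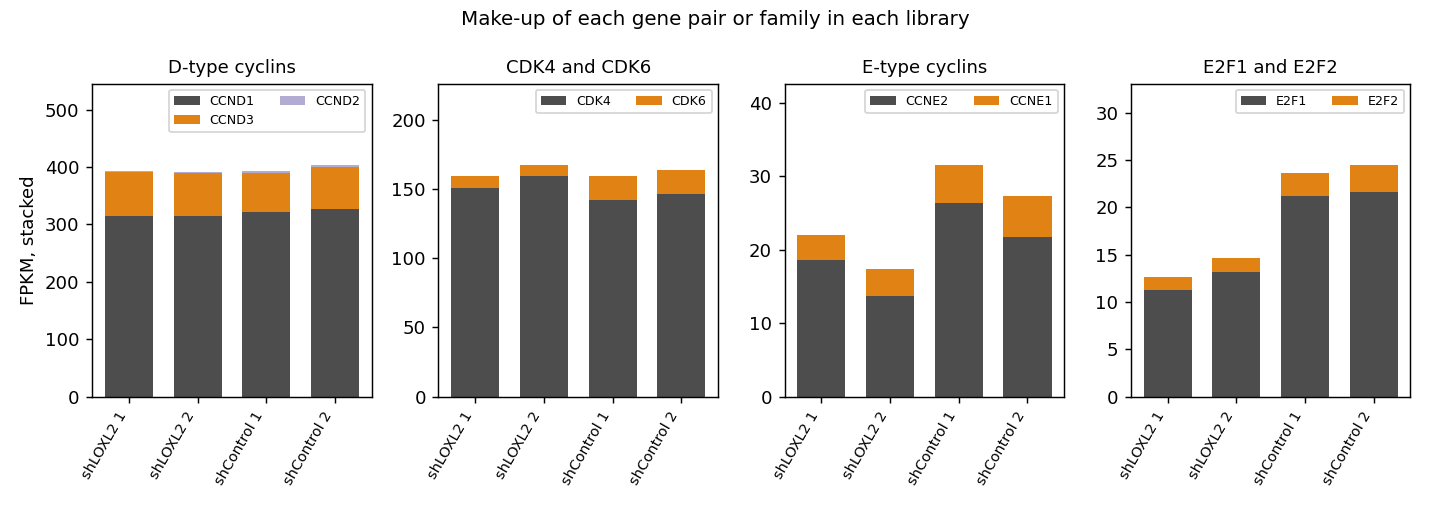
FPKM stacked by gene in each library, the 2 shLOXL2 libraries to the left of the 2 shControl libraries, for D-type cyclins, CDK4 with CDK6, E-type cyclins and E2F1 with E2F2. CDK6 shrinks to 5.44% and 4.74% of the CDK4 and CDK6 bar in shLOXL2, whereas the E-type cyclin and E2F bars are shorter as a whole.

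RB1, whose product is the substrate of these kinases and the brake on E2F, stood at 21.3 and 22.3 FPKM in shLOXL2 libraries and at 23.0 and 22.6 FPKM in shControl libraries. The groups did not overlap but lay close together, and the log2 change was -0.064 (95% interval -0.19 to 0.060, limma adjusted p = 0.365). It was -0.14 at equal sums and ran from -0.097 to -0.031 with each library left out. Its relative RBL1, the p107 pocket protein gene, fell to 18.1 and 17.9 FPKM in shLOXL2 against 21.7 and 21.0 FPKM in shControl (log2 -0.23, limma adjusted p = 0.0409). RBL2, the p130 gene, stood at 7.44 and 7.41 FPKM in shLOXL2 libraries and at 7.14 and 7.41 FPKM in shControl libraries. Its log2 change was 0.026 (limma adjusted p = 0.735), and -0.041 at equal sums over nuclear genes. PCNPP5, a pseudogene that overlaps RB1, stood at 22.9 and 24.7 FPKM in shLOXL2 against 23.1 and 24.2 FPKM in shControl and did not pass (log2 0.0065, limma adjusted p = 0.952).

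The E-type cyclins, which act later in G1 with CDK2, were lower in shLOXL2 cells. CCNE1 (ENSG00000105173) stood at 3.43 and 3.75 FPKM in shLOXL2 libraries and at 5.22 and 5.63 FPKM in shControl libraries. The shLOXL2 libraries held 66.2% of the control mean, with a log2 change of -0.48 ± 0.078 (SE, n = 2 each, limma adjusted p = 0.0405). With quantile normalization CCNE1 did not pass (log2 -0.46, limma adjusted p = 0.0541), and with a pseudocount of 5 FPKM its change was -0.28. CCNE2, the more abundant of the pair, stood at 18.6 and 13.7 FPKM in shLOXL2 libraries and at 26.4 and 21.8 FPKM in shControl libraries. Both groups spread widely, and although both shLOXL2 values were the lower ones, at 67.02% of the control mean, the gene did not pass (log2 -0.56, 95% interval -1.12 to 0.0047, limma adjusted p = 0.141, and log2 -0.35 without shLOXL2 replicate 2). NDUFAF6, a mitochondrial complex I assembly gene that overlaps CCNE2, fell as well, to 26.1 and 26.8 FPKM against 32.6 and 34.8 FPKM (log2 -0.34, limma adjusted p = 0.0344). INTS8, which also overlaps CCNE2, stood at 33.5 and 37.5 FPKM against 34.3 and 40.2 FPKM and did not pass (log2 -0.066, limma adjusted p = 0.698). The share of CCNE1 in the summed E-type cyclins was 15.6% and 21.5% in shLOXL2 and 16.5% and 20.5% in shControl, so the groups overlapped. CDK2 stood at 72.8 and 76.1 FPKM in shLOXL2 libraries and at 86.9 and 83.1 FPKM in shControl libraries. It was lower in both shLOXL2 libraries, at 87.7% of the control mean, without passing (log2 -0.19, 95% interval -0.32 to -0.057, limma adjusted p = 0.0757).

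Of the activating E2F genes, the pair among the 10, E2F1 and E2F2, were lower in shLOXL2 cells, and E2F1 passed the test. E2F1 (ENSG00000101412), whose upstream sequence with 2 E2F words is shown above, stood at 11.2 and 13.1 FPKM in shLOXL2 libraries and at 21.2 and 21.7 FPKM in shControl libraries. The group means were 12.2 ± 1.34 and 21.4 ± 0.320 FPKM (SD, n = 2 each), or 56.9% of the control level. The log2 change was -0.77 ± 0.087 (SE, limma adjusted p = 0.0241), a value that 4.18% of all tested genes reached or passed toward lower levels. E2F2, the least abundant of the 10 genes, stood at 1.36 and 1.48 FPKM in shLOXL2 libraries and at 2.46 and 2.85 FPKM in shControl libraries. Both shLOXL2 libraries lay below both controls, at 53.3% of the control mean, and the gene missed the threshold (log2 -0.60, limma adjusted p = 0.0563). Because the pseudocount is close to these levels, the change of E2F2 was -0.86 with 0.1 FPKM, where it passed (limma adjusted p = 0.044), and -0.25 with 5 FPKM. E2F2 made up 10.8% and 10.1% of the E2F1 and E2F2 sum in shLOXL2 and 10.4% and 11.6% in shControl, so that the make-up overlapped, while the sum was 12.6 and 14.6 FPKM in shLOXL2 against 23.7 and 24.5 FPKM in shControl.

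The count of calls depended on which genes shared the fit. When protein-coding genes were fitted alone, where 19.4% of 11216 genes fell and 19.0% rose, 38.5% together, 6 of the 10 genes fell, CDK6, E2F1, CCNE1, E2F2 (limma adjusted p = 0.00556), CDK2 (0.0242) and CCNE2 (0.027), and 0 rose. Without a filter on low values only CDK6 of the 10 passed, where 542 of 36224 tested genes fell and 601 rose. Whichever library was dropped, 0 of the 10 passed, nor did any gene of the pathway lists. Such a fit keeps 1 residual degree of freedom and assumes that the lone library varies like the others. The limma adjusted p then ran from 0.0898 to 0.165 for CDK6, from 0.093 to 0.191 for E2F1 and from 0.128 to 0.205 for CCNE1, while their log2 changes stayed within -1.06 to -0.95, -0.87 to -0.67 and -0.53 to -0.43.

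Ordered by mean level in shLOXL2 cells, the genes ran CCND1, CDK4, CCND3, CDK2, RB1, CCNE2, E2F1, CDK6, CCNE1 and E2F2. In shControl cells the order was CCND1, CDK4, CDK2, CCND3, CCNE2, RB1, E2F1, CDK6, CCNE1 and E2F2. Neighbours whose values overlapped were CCND3 and CDK2 in shLOXL2 cells and CCNE2 and RB1 in shControl cells. Among 114 tested genes of the pathway lists, the gene nearest to CDK6 in its centred log2 values over the 4 libraries was NRAS, the RAS family GTPase gene (Euclidean distance 0.131). The nearest to E2F1 was CHAF1B, a chromatin assembly factor subunit (0.0911), and the nearest to CCNE1 was RFC4, a clamp loader subunit of replication (0.037). CCND1 lay nearest to the spindle gene TPX2 (0.015), CCND3 to CKS2 (0.0313), CDK4 to MAP2K1 (0.0444), CDK2 to LIN9 (0.023), RB1 to CCNH (0.0432), E2F2 to CCNA1 (0.0399) and CCNE2 to FOS (0.199). By this measure genes with a like difference between the groups lie near each other.

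The CDK inhibitors went in both directions. Of 7 listed genes 5 were tested, and 1 fell, 2 rose and 2 did not pass, where 16.9% of all tested genes were called. The median log2 change of the 5 genes was -0.15, and -0.22 at equal sums. CDKN1C, which encodes p57, rose to 10.7 and 10.2 FPKM in shLOXL2 against 5.67 and 5.33 FPKM in shControl (log2 0.82, limma adjusted p = 0.0143). CDKN1B, which encodes p27, an inhibitor of cyclin E with CDK2, rose to 36.3 and 34.2 FPKM against 23.6 and 25.7 FPKM (log2 0.50, limma adjusted p = 0.0277). CDKN1A, the p21 gene and a p53 target, fell to 43.4 and 42.6 FPKM against 60.8 and 60.1 FPKM (log2 -0.48, limma adjusted p = 0.0134). Thus p27 and p57 transcripts were higher and p21 transcripts lower in both shLOXL2 libraries than in both controls. The INK4 genes did not pass: CDKN2C stood at 26.7 and 25.2 FPKM against 28.6 and 29.0 FPKM (log2 -0.15, limma adjusted p = 0.124), and CDKN2D at 35.0 and 38.0 FPKM against 44.5 and 44.6 FPKM (log2 -0.28, limma adjusted p = 0.0516). CDKN2D passed under 6 alternatives, with the lowest limma adjusted p of 0.0101 among protein-coding genes alone. CDKN2A, which encodes p16 and is known to be deleted in this line, and its neighbour CDKN2B were listed at 0 in all 4 libraries. The table lists 2361 of 18787 protein-coding genes at 0 in all 4, among them EEF1A1, which every cell uses, so a 0 can be a failed estimate.

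**Figure D3:**
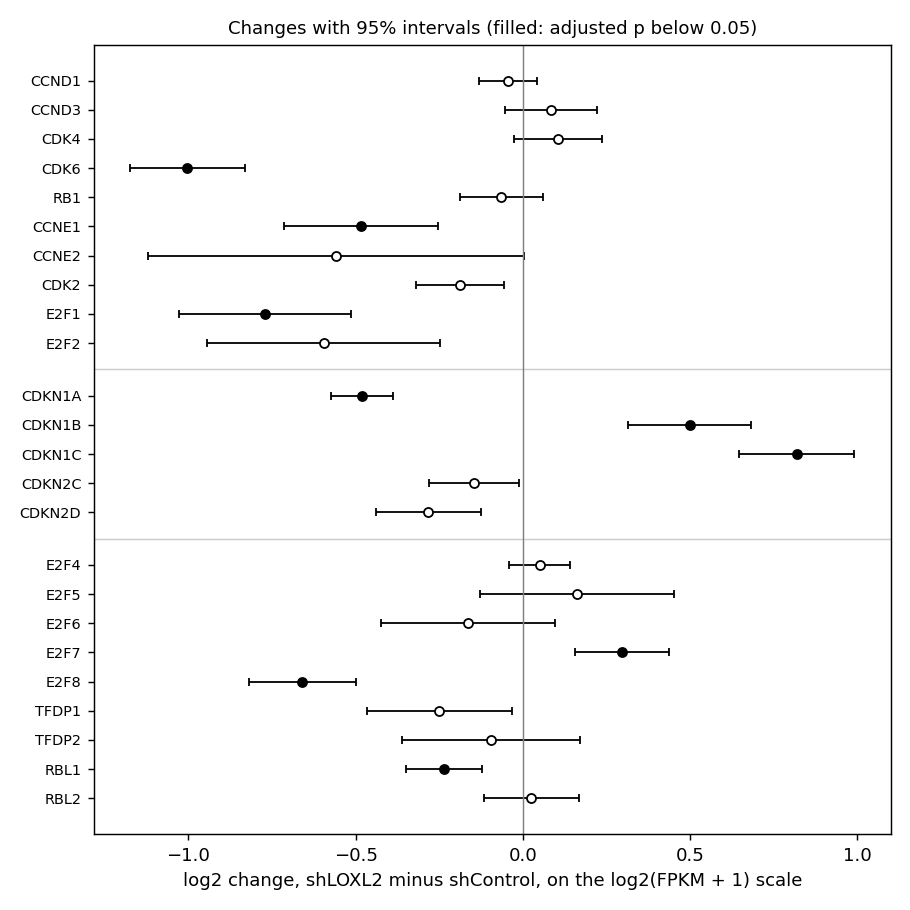
Log2 change of shLOXL2 minus shControl on the log2(FPKM + 1) scale with its 95% interval from limma, for the 10 G1 genes (top), the 5 tested CDK inhibitors (middle) and the 9 other tested E2F, DP and pocket protein genes (bottom), filled where the adjusted p was below 0.05. CDK6 at -1.003 and CDKN1C at 0.82 mark the ends of the range.

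Of the 10 other E2F, DP and pocket protein genes 9 were tested, of which 2 fell, 1 rose and 6 did not pass, where 16.9% of all tested genes were called. Their median log2 change was -0.096, and it was -0.17 at equal sums, 0.011 without shLOXL2 replicate 1 and -0.20 without shLOXL2 replicate 2. The atypical repressor genes E2F7 and E2F8 parted. E2F8 fell to 4.08 and 3.97 FPKM in shLOXL2 against 6.91 and 6.97 FPKM in shControl (log2 -0.66, limma adjusted p = 0.0166, and log2 -0.40 with a pseudocount of 5 FPKM). E2F7 rose to 35.7 and 34.2 FPKM against 27.5 and 29.0 FPKM (log2 0.30, limma adjusted p = 0.04). The rise of E2F7 no longer passed at equal sums over nuclear genes (log2 0.22, limma adjusted p = 0.088). E2F4, a repressor that binds p107 and p130, stood at log2 0.050, which was -0.024 at equal sums over nuclear genes. E2F5 stood at 0.16, E2F6 at -0.16, and the DP partner genes TFDP1 at -0.25 and TFDP2 at -0.096. With each library left out these ran from 0.050 to 0.28 for E2F5, -0.27 to -0.061 for E2F6, -0.34 to -0.16 for TFDP1 and -0.20 to 0.011 for TFDP2. E2F3, the third activating E2F, was listed at 0 in all 4 libraries.

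Further cyclins and kinases showed 3 falls and 0 rises among 11 genes, where 8.54% of all tested genes fell and 8.35% rose. The median log2 change of the 11 genes was -0.15, and -0.23 at equal sums. The A-type cyclin CCNA2, which follows cyclin E in S phase, fell to 102 and 102 FPKM in shLOXL2 against 122 and 128 FPKM in shControl (log2 -0.29, limma adjusted p = 0.0282). CCNA1 fell to 3.29 and 3.63 FPKM against 5.45 and 5.98 FPKM (log2 -0.59, limma adjusted p = 0.0332, and log2 -0.34 with a pseudocount of 5 FPKM), and CCND2 was the other. The 8 that did not pass included CDK1 (log2 -0.049) and the phosphatase gene CDC25A (log2 -0.28, limma adjusted p = 0.0652). The DREAM and MuvB complexes hold cell cycle promoters silent in quiescence and activate them later. Of their 7 genes 3 fell and 0 rose, where 8.54% of all tested genes fell and 8.35% rose. The median log2 change of the 7 genes was -0.37. It was -0.27 with a pseudocount of 5 FPKM, -0.47 without shControl replicate 1 and -0.26 without shControl replicate 2. MYBL2, an E2F target that joins MuvB in S phase, fell to 24.8 and 24.9 FPKM against 35.0 and 35.1 FPKM (log2 -0.48, limma adjusted p = 0.0134). LIN54, the DNA-binding subunit of MuvB, fell to 15.6 and 14.1 FPKM against 21.6 and 22.3 FPKM (log2 -0.54, limma adjusted p = 0.027). RBBP4 fell to 19.4 and 17.4 FPKM against 45.5 and 41.3 FPKM (log2 -1.19, limma adjusted p = 0.014), but its pseudogenes RBBP4P1 (log2 -1.02) and RBBP4P2 (log2 -0.89) fell with it and may share its reads, so it is uncertain.

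Of 13 genes that turn over cyclins and CDK inhibitors 1 fell and 0 rose, where 8.54% of all tested genes fell and 8.35% rose. The median log2 change of the 13 genes was 0.043, and -0.031 at equal sums over nuclear genes. The gene that fell was SKP2, the ubiquitin ligase subunit that marks p27 for degradation and is itself an E2F target. It stood at 12.7 and 12.3 FPKM in shLOXL2 libraries and at 21.96 and 23.2 FPKM in shControl libraries (log2 -0.81, limma adjusted p = 0.0131). The p27 protein was not measured, and a link between SKP2 and p27 transcripts was not tested. Of 19 genes of growth signals upstream of cyclin D 3 fell and 0 rose, a share near the 16.9% called over all tested genes. Their median was -0.071, and it was -0.15 at equal sums, -0.017 without shControl replicate 1 and -0.12 without shControl replicate 2. NRAS fell to 22.8 and 23.1 FPKM against 48.9 and 50.5 FPKM (log2 -1.08, limma adjusted p = 0.0115), the kinase gene AKT1 to 89.1 and 94.9 FPKM against 120.1 and 118 FPKM (log2 -0.37, limma adjusted p = 0.027), and EGFR to 32.1 and 30.6 FPKM against 37.9 and 36.6 FPKM (log2 -0.24, limma adjusted p = 0.0497). Calls in this list numbered 2 with a pseudocount of 5 FPKM, 1 without a filter on low values and 5 at equal sums. MYC stood at 108 and 114 FPKM in shLOXL2 libraries and at 118 and 125 FPKM in shControl libraries and did not pass (log2 -0.12, limma adjusted p = 0.201).

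Genes that E2F factors are known to drive at the start of S phase showed lower values almost throughout. Of 32 listed genes 30 were tested. Of these 24 fell, 0 rose and 6 did not pass, at a median log2 change of -0.49, where 8.54% of all tested genes fell. That median was -0.43 with a pseudocount of 5 FPKM and -0.57 at equal sums. The list was chosen with earlier results of these data known, so its share describes these libraries and is not an independent test. The calls with the smallest p were the replicative helicase genes MCM3 (log2 -0.63), MCM6 (log2 -0.85) and MCM4 (log2 -0.49), with limma adjusted p of 0.0124, 0.0131 and 0.0131. Falls reached -1.09 for CDCA7, which stood at 2.998 and 3.22 FPKM in shLOXL2 and at 7.46 and 8.06 FPKM in shControl. ASF1B, a histone chaperone gene, was the only tested gene of the list with a positive change, at 0.18 (limma adjusted p = 0.0566). An E2F word lay upstream of 12 of the 27 listed genes with a window, where 928 of 27305 genes of the whole table had a word. The list was made of known E2F targets, so a higher share follows from that choice. The whole table was not limited to genes tested here, and a link between the words and the falls was not tested. Of 20 mitosis genes, which act after S phase, 3 fell and 1 rose, near the 16.9% called over all tested genes. Their median was -0.051, and it was -0.13 at equal sums, -0.032 without shControl replicate 2 and -0.084 without shLOXL2 replicate 1. AURKA (log2 -0.29), BUB1 (log2 -0.24) and NUSAP1 (log2 -0.17) fell, and the spindle checkpoint kinase gene TTK rose (log2 0.18), with limma adjusted p from 0.0239 to 0.0471. At equal sums TTK did not pass (limma adjusted p = 0.0997). CCNB1, the mitotic cyclin, stood at 439.7 and 450.5 FPKM in shLOXL2 libraries and at 444 and 469.8 FPKM in shControl libraries, with overlap between the groups. MKI67, the proliferation marker, stood at 45.7 and 39.1 FPKM against 53.9 and 51.8 FPKM and did not pass (log2 -0.31, limma adjusted p = 0.107). Whether the S phase list differed from the mitosis list was not tested. When any 1 library was dropped, none of the 36 genes given here as risen or fallen, LOXL2 apart, passed.

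**Figure D4:**
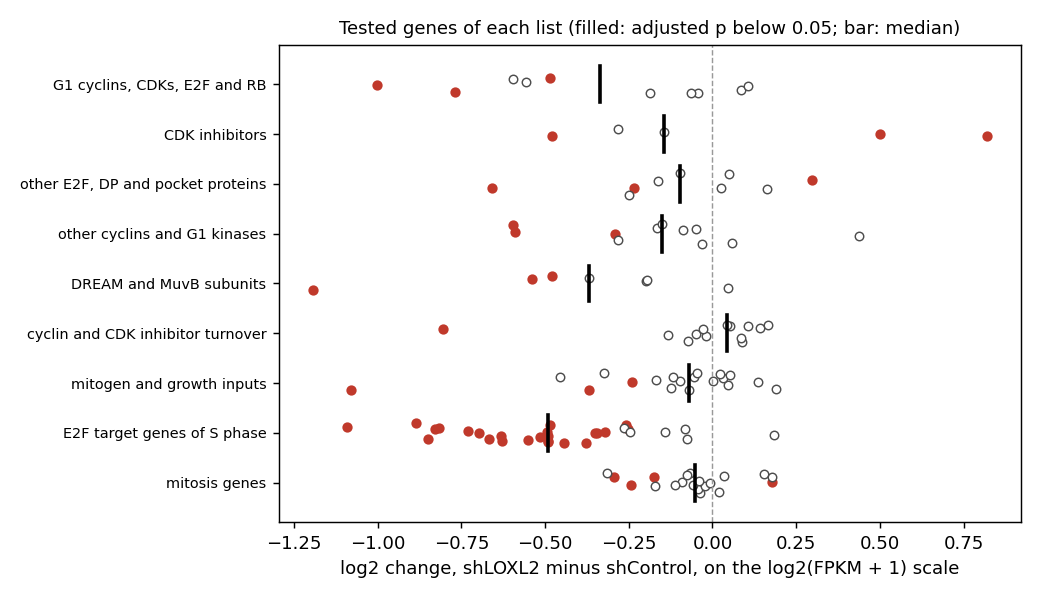
Log2 change of every tested gene, shLOXL2 minus shControl on the log2(FPKM + 1) scale, for the 10 G1 genes and the 8 pathway lists, filled where the adjusted p was below 0.05 and with a bar at the median. The S phase list lies left of 0 apart from ASF1B, whereas the mitosis list centres at -0.051 (-0.13 at equal sums).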

How the data were processed

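RNA was measured in 2 shLOXL2 and 2 shControl libraries of MDA-MB-231 cells. The authors deposited 1 table of FPKM per Ensembl gene and library. Bowtie, Cufflinks and the GRCh37 build are known from the submitters' processing notes, which state no versions. The annotation, strand setting and read filters are not given in the sources used here. FPKM spreads reads over transcripts by an estimate, so genes with near-identical copies and genes listed at 0 are uncertain. Columns were matched to samples by their titles. The deposited peak lists were not analysed, since no GRCh37 annotation was at hand to place them at these genes, so the planned description of peaks was not run.

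Symbols were matched for 39694 of 63657 identifiers. Log2(FPKM + 1) of the 16987 genes that averaged 1 FPKM or more was fitted with limma 3.58.1 in R 4.3.3 with an intensity trend and no covariate. Intervals of 95% used its moderated degrees of freedom. Lists were described by counts and medians without a test. Named were the 10 genes, all CDK inhibitors and other E2F, DP and pocket protein genes, and in each other pathway list up to 3 genes with the smallest p among calls without overlap between the groups, with the nearest gene for each of the 10. TTK, CDCA7, ASF1B, CDK1, CDC25A, MYC, CCNB1, MKI67, the markers, pseudogenes and overlapping genes were added after their values were seen. Some listed genes are not reported here. The genes and lists were chosen with earlier results of these data known. Figures and tables used Python 3.11.15, pandas 2.3.3 and matplotlib 3.10.9.

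Alternatives covered the pseudocount, the filter, the scaling, the variance prior, protein-coding genes alone, a replicate block and each library left out.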

Additional observations from a re-analysis of the deposited data

How the results depend on the processing

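All 10 genes kept their direction under the 14 alternatives. The 3 falls among them were 1 without a filter on low values, 5 at equal sums over nuclear genes, 6 with protein-coding genes alone, 2 with quantile normalization, where CCNE1 did not pass, 0 with the replicate block and 0 to 0 with each library left out. Their median log2 change was -0.22 with a pseudocount of 5 FPKM, -0.13 at a filter of 5 FPKM, where CCNE1 and E2F2 were not tested, and -0.40 at equal sums. Over all genes, 2171 fell and 1016 rose at equal sums (1450 and 1419 without that scaling), 542 and 601 did without a filter, 2178 and 2136 with protein-coding genes alone, 926 rose without a variance trend, 0 and 0 passed with the block, and 70 to 217 fell and 18 to 220 rose with each library left out. Same-numbered libraries did not deviate together (correlation -0.0013 over 16987 genes). The labels do not tell whether they were paired, and with 2 libraries per group this correlation cannot decide it. With the block, which leaves 1 residual degree of freedom, 5519 genes had an unadjusted p below 0.05, 6 of the 10 among them, and 0 genes of any pathway list passed, as with each library left out. Calls of other E2F, DP and pocket protein genes (3) were 1 without a filter and 1 without a trend. Those of other cyclins and kinases (3) were 0 without a filter, 6 at equal sums and 7 with protein-coding genes alone. DREAM and MuvB calls (3) were 5 with protein-coding genes, turnover calls (1) were 2 at equal sums, and growth signal calls (3) were 1 without a filter, 5 at equal sums and 5 with protein-coding genes. Mitosis calls (4) were 1 without a filter, 1 without a trend and 7 with protein-coding genes, while the 24 S phase calls stayed within 1.5 times elsewhere. Reversed signs were E2F4 (-0.024) and RBL2 (-0.041) at equal sums and TFDP2 without shLOXL2 replicate 1, whose change ran from -0.20 to 0.011 with each library left out. The cause of these differences was not tested. Of the 25 calls chosen by the rule for named genes, LOXL2 apart, 13 were lost without a filter and 6 without a trend, 2 with quantile normalization, 1 at equal sums and 1 with a pseudocount of 5 FPKM. LOXL2 itself lost its call without shControl replicate 1 (adjusted p = 0.157) or replicate 2 (0.154). Without counts, the depth behind low genes such as E2F2 is unknown.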
